A study of Homo sapiens with 2 samples.

Results

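YAP, TEAD and their target genes were examined in HNRNPK ChIP-seq data of H1299 cells as 10 genes, YAP1, WWTR1, TEAD1, TEAD2, TEAD3, TEAD4, CCN1, CCN2, AMOTL2 and LATS2, out of 20037 protein-coding genes on the chromosomes of the RefSeq annotation of GRCh38. Every peak that overlapped the span of one of these genes, or the 10 kb to either side of it, by at least 1 bp was taken. This gave 15 of the 22351 peaks in the deposited list. The genes were selected on their peaks in this same list, that is on presence, length, pileup and distance to the gene ends, so the values below describe them and were not tested. HNRNPK, a poly(C)-binding protein, was precipitated with its antibody from untreated H1299 cells, which are a human line of non-small cell lung cancer and which the labels give as lung adenocarcinoma. There was 1 IP library, compared with 1 Input library of the same untreated cells made with no antibody. Without replicates, no value carries a replicate error. The peak names write the cell line as A1299, and the list was read as that of the H1299 IP.

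YAP1 and WWTR1 (also called TAZ) encode the coactivators at the output of the Hippo pathway. When the upstream kinases, among them LATS1 and LATS2, are active, both proteins are phosphorylated and held in the cytoplasm. When the kinases are inactive, they enter the nucleus and bind TEAD1 to TEAD4, the DNA-binding proteins through which they act. CCN1 (CYR61) and CCN2 (CTGF), which encode secreted matricellular proteins, are the most widely used readouts of this activity. AMOTL2 and LATS2 are targets too and feed back on the pathway, since AMOTL2 holds YAP outside the nucleus and LATS2 phosphorylates it. In lung and other epithelial cancers the pathway is known for its control of cell growth and migration.

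Of the 10 genes, 7 had at least 1 peak in the span or the 10 kb around it, and 3 (TEAD1, TEAD3 and LATS2) had none. By the same rule a peak was found at 43.8% of all protein-coding genes (8782 of 20037). A peak with an FDR under 0.05, the q-value that the peak caller gave, was present at 5 genes, namely CCN1, YAP1, WWTR1, CCN2 and AMOTL2, against 10.9% of all protein-coding genes (2184 of 20037). Peaks inside the gene span itself were found at 6 genes, all of the 7 but TEAD2, and at 29.7% of protein-coding genes. Only CCN1 and YAP1 had a peak with a fold enrichment of at least 5 (2.7% of protein-coding genes) or with an FDR under 0.001 (1.89%). The coactivators and 3 of the 4 target genes therefore held all 5 peaks with an FDR under 0.05, and no TEAD gene held one. The remaining 10 peaks had an FDR from 0.17 to 1. Because the genes were chosen for their peaks, the distance between these shares and the background is not evidence for the set.

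**Figure D1:**
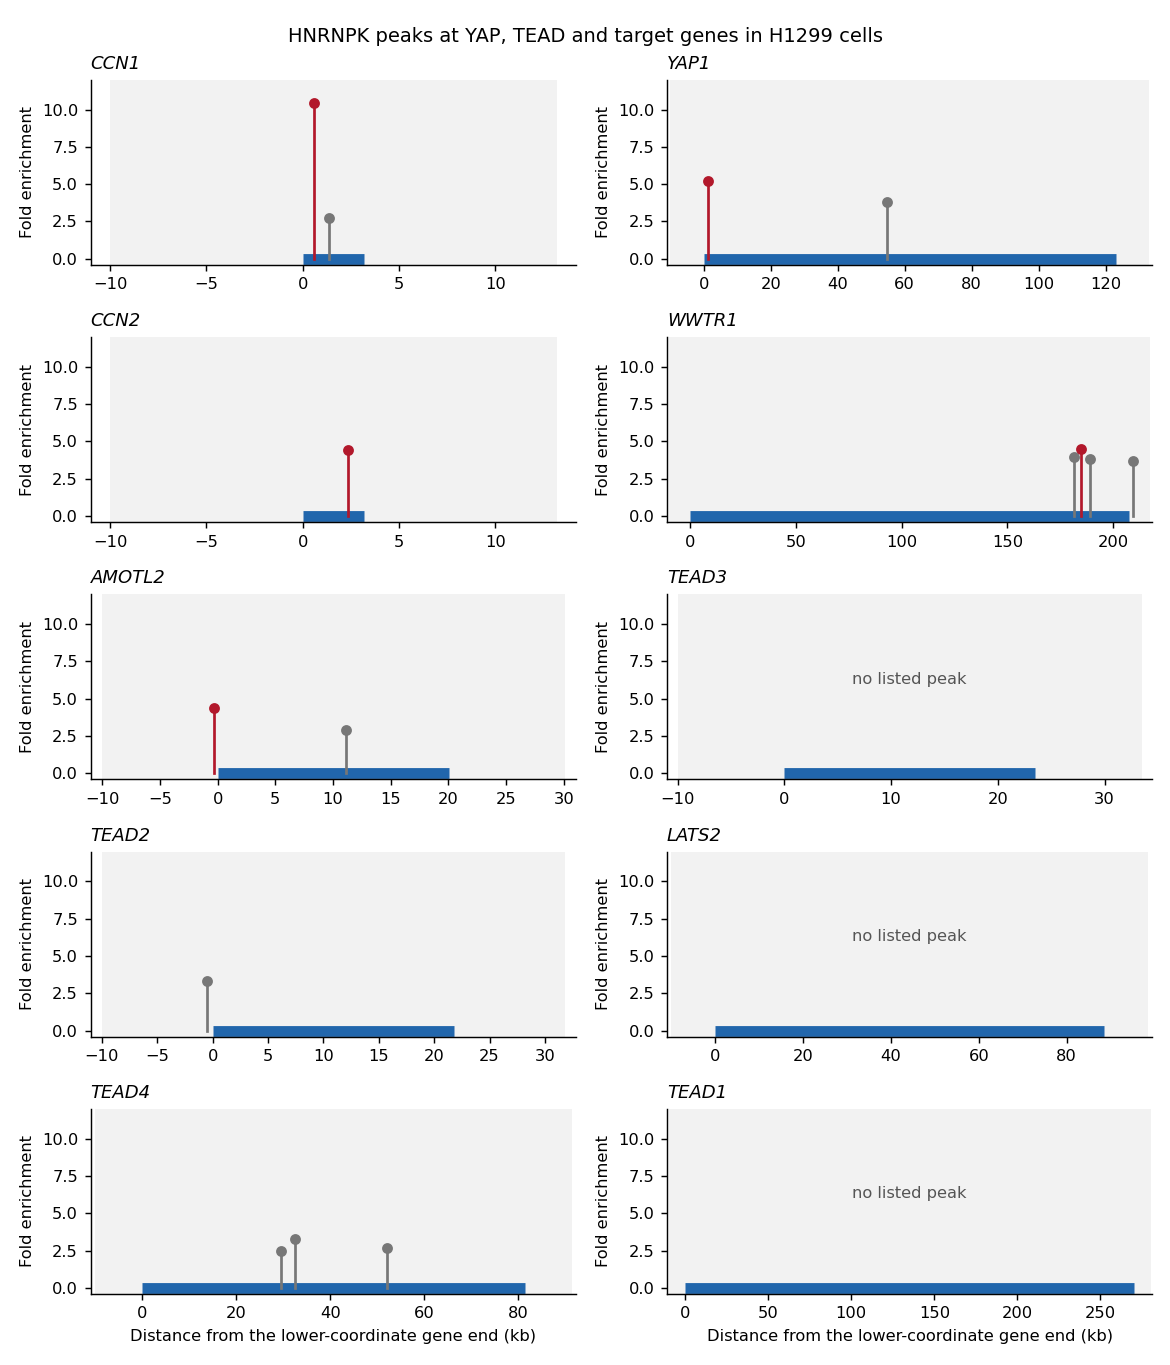
HNRNPK peaks at the 10 genes, with distance from the lower-coordinate gene end in kb on the horizontal axis (a scale of its own for each gene) and fold enrichment on the vertical axis. Blue bars are gene spans, grey areas the 10 kb window, red stems the 5 peaks with an FDR under 0.05 and grey stems the 10 others; the CCN1 peak of 10.46 stands above all others, and TEAD3, LATS2 and TEAD1 hold no listed peak.

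Promoter sequences are given first for YAP1, WWTR1 and CCN2, the genes whose peak with an FDR under 0.05 lay within 2 kb of an annotated start. The RefSeq promoter table of GRCh38.p14 (250 bases before to 50 after each gene's start) held 10 entries for 7 of the 10 genes. CCN1, TEAD1 and TEAD4 had no entry. None of the 10 entries was overlapped by a peak. Of all 35116 windows of 300 bases, 1.67% were. Motifs were searched on both strands. They were GGAATG, the core of the TEAD motif, GCGAGG and CTAATG, the motif letters of the study, and CCCTCC, a C-rich run of the kind that poly(C)-binding proteins recognise. Capitals mark every match, each line is written 5′ to 3′ in the direction of the gene, and positions are counted from the start as 0. The windows are chr11:102110197-102110496 for YAP1 (plus strand), chr3:149703224-149703523 for the WWTR1 start nearer to its peak (minus strand) and chr6:131951323-131951622 for CCN2 (minus strand).
YAP1: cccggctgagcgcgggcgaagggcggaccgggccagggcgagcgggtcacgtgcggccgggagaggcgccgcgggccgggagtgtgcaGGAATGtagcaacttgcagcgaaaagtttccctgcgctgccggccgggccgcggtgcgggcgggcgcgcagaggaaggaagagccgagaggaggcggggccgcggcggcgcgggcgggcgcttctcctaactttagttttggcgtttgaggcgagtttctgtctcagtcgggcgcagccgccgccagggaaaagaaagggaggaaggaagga
WWTR1: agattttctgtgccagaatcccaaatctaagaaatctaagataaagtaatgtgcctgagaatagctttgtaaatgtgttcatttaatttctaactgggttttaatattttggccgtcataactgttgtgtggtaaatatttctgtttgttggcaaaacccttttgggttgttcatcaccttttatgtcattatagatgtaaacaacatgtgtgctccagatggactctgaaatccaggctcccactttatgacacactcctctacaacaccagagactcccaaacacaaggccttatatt
CCN2: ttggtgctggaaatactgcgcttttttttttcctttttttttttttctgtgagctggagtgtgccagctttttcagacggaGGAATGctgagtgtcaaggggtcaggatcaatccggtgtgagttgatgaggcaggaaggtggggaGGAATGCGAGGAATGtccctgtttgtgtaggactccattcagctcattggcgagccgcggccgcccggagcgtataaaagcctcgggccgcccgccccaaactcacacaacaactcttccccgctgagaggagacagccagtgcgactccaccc

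The CCN2 window held GGAATG 3 times, at positions -169, -104 and -95, all on the gene's strand. GCGAGG stood at -99 between the last pair, sharing 1 base with the first of them and 2 with the second, so that these matches form 1 unbroken run. In the YAP1 window the only match was GGAATG at -162. The WWTR1 window shown held no match, and the other WWTR1 entry held CCCTCC once. GGAATG was also matched once in an AMOTL2 window, at -69 on the opposite strand, and once in the LATS2 window, at 9. GCGAGG was matched 3 times in the TEAD3 window, at -214, -168 and -121, and once in the farther of the TEAD2 entries. CCCTCC was in 6 of the 10 entries, those of TEAD2, TEAD3 and AMOTL2 and 1 of WWTR1, and in none of YAP1, CCN2 or LATS2. GGAATG was in 4 of the 10, GCGAGG in 3 and CTAATG in 0. Over all 35116 windows, GGAATG was found in 14.0%, GCGAGG in 22.0%, CTAATG in 6.49% and CCCTCC in 45.7%. These matches are letters in a window, and a missing match says only that the letters are not there.

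The highest peak lay in CCN1, chr1:85580761-85583950, a gene of 3190 bp. It covered chr1:85580850-85581875, from 89 to 1114 bp inside the lower end of the gene, and its length of 1026 bp was the greatest of the 15 peaks. The pileup, which is the IP coverage at the peak in scaled fragments, was 26.28. All pileups of the list were multiples of 0.9735, so this value stands for 27 fragments (exact Poisson 95% interval, 17.8 to 39.3). Fold enrichment, the pileup plus 1 over the local background plus 1, was 10.46, or 7.03 to 15.1 over the same interval, with an FDR of 5.84e-18. The local background was 1.61 scaled fragments. Only 4 peaks in the list had a higher fold enrichment. These intervals cover the counting error of the IP fragments only, with the local background held fixed. Sequenced copies of a fragment are also not independent molecules.

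A second CCN1 peak began 134 bp above the first, at chr1:85582009-85582241. It was 233 bp long, the shortest length in the list, with a pileup of 12.66 (13 fragments) and a fold enrichment of 2.73 at an FDR of 0.351. Its pileup equalled that of the highest YAP1 peak, whereas its local background, 4.0, was the highest of the 15 peaks. Both lay between 89 and 1480 bp above the lower end of CCN1, and the nearest other gene, DDAH1, ended 2.65 kb from the first peak.

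CCN2, chr6:131948176-131951372, is of nearly the same size as CCN1 (3197 bp) and had 1 peak. It lay at chr6:131950426-131950659, from 713 to 946 bp downstream of the gene's start and thus in the gene body, on the other side of the start from the TEAD motifs shown above. The pileup was 11.68 (12 fragments, exact Poisson 95% interval 6.2 to 21.0) on a background of 1.86. Fold enrichment was 4.43 (2.46 to 7.48) and the FDR 0.0124. The antisense gene CCN2-AS1 spans the same position, and ChIP-seq does not tell the strands apart. The fold enrichments of the first CCN1 peak and the CCN2 peak, 10.46 and 4.43, had overlapping counting intervals.

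AMOTL2, chr3:134355345-134375417, had its higher peak outside the gene, from 161 to 495 bp beyond the lower end, which is the far end of this minus-strand gene. That peak (chr3:134354850-134355184) had a pileup of 9.73 (10 fragments), a fold enrichment of 4.39 and an FDR of 0.0338. A further peak 7.79 kb downstream of the nearer annotated start had 8 fragments, a fold enrichment of 2.93 and an FDR of 0.64. Neither of them was within 2 kb of an AMOTL2 start. LATS2, chr13:20973036-21061586, had no listed peak over its 88.6 kb. The nearest peaks were 26.4 kb below it in LINC00367 (fold enrichment 4.3, FDR 0.101) and 349 kb above it in ZDHHC20 (fold enrichment 4.77, FDR 0.0243).

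YAP1, chr11:102110447-102233424, had 2 peaks in its 123 kb. The first, chr11:102111517-102111966, lay 1070 to 1519 bp downstream of the start, beyond the promoter sequence given above. It was 450 bp long, with a pileup of 12.66 (13 fragments, exact Poisson 95% interval 6.92 to 22.2) on a background of 1.63. Its fold enrichment of 5.19 (2.94 to 8.6) was the second highest among the 10 genes, at an FDR of 0.000805. The other peak, 54.6 kb downstream of the start, had 8 fragments, a fold enrichment of 3.81 and an FDR of 0.21. No other annotated gene spanned either position.

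WWTR1, chr3:149517235-149724788, had 4 peaks, the most of the 10 genes, and all lay in the upper part of the gene or just above it. Their midpoints stood at 87.4%, 88.9% and 91.1% of the span counted from its lower end and, for the fourth, 1.62 kb above the upper end by its near edge. The second, chr3:149701688-149701936, had a pileup of 9.73 (10 fragments, exact Poisson 95% interval 4.8 to 18.4), a fold enrichment of 4.48 (2.36 to 7.89) and an FDR of 0.0275. It was 1337 to 1585 bp downstream of the nearer of the 2 annotated starts of this minus-strand gene and 43.7 kb upstream of the other. The 3 others had 7 or 8 fragments, fold enrichments from 3.69 to 3.93 and an FDR from 0.17 to 0.29. None of the 4 peaks lay downstream of the lower start, and the lower 181 kb of the span held no listed peak. The fourth peak was 697 bp long, the second longest of the 15, yet rested on only 7 fragments.

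Among the TEAD genes, which encode the DNA-binding partners, TEAD4 and TEAD2 had peaks, all with an FDR of 0.401 or more. TEAD4, chr12:2959397-3040676, had 3, at 29.3, 32.2 and 51.8 kb above its lower end. They held 9, 8 and 10 fragments, with fold enrichments of 2.44, 3.28 and 2.68. The local backgrounds of the first and the third were both 3.0, against a median of 1.28 over the list. TEAD2, chr19:49340595-49362416, had 1 peak, 379 to 611 bp beyond its far end on the long arm of chromosome 19, where SLC6A16 and CD37 span the same position. With 6 fragments and a fold enrichment of 3.34 (FDR 0.64), it was the lowest pileup of the 15 peaks. TEAD1, chr11:12674421-12944737, is the longest of the 10 genes at 270 kb and lay in a stretch of 749 kb without a listed peak. TEAD3, chr6:35473597-35497079, lay in a stretch of 127 kb. A gene without a listed peak had no coverage past the limit of the peak caller, and the lowest pileup in the whole list was 5 fragments.

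The 10 kb limit left out a peak above TEAD3 that was 14.7 kb from the gene, in TULP1, with 10 fragments, a fold enrichment of 5.25 and an FDR of 0.00457. It also left out peaks 12.7 kb below YAP1 (fold enrichment 3.23, FDR 0.64) and 14.1 kb above TEAD4 (fold enrichment 2.6, FDR 1). Inside the limit, the peak farthest from its gene, measured by its near edge, was the one 1.62 kb above WWTR1. No other peak had its near edge between 1.62 and 10 kb from any of the genes. At the FDR limit, the AMOTL2 peak with 0.0338 was the last inside and the first WWTR1 peak with 0.17 the first outside.

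Ordered by their highest peak, the 7 genes ran from CCN1 (10.46) through YAP1 (5.19), WWTR1 (4.48), CCN2 (4.43) and AMOTL2 (4.39) to TEAD2 (3.34) and TEAD4 (3.28), all as fold enrichment. Neighbours in this order had overlapping counting intervals throughout. The interval of CCN1 also overlapped those of WWTR1, CCN2 and AMOTL2. With the local background held fixed, the CCN1 interval lay above those of TEAD2 (1.54 to 6.7) and TEAD4 (1.63 to 6.1). Among all protein-coding genes, 6 had a higher fold enrichment in the span or 10 kb around it than CCN1, and 419 (2.09%) had a higher one than YAP1. For WWTR1, CCN2 and AMOTL2 this share was 7.45%, 8.15% and 8.5%, and for TEAD2 and TEAD4 it was 32.6% and 35.9%. All these shares count genes without a peak in the total, and only 43.8% of protein-coding genes had one. Among the 22351 listed peaks, the highest TEAD2 and TEAD4 peaks ranked 13329 and 15343 by fold enrichment.

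The genes nearest to CCN1 in this order were H2AC20, H2AC21 and H2BC21, histone genes that shared a value of 10.47, and, just below, EGR1, an immediate early transcription factor, with 10.17. DDAH1 had the value of CCN1 because its 10 kb window reaches the same peak. YAP1 was followed by ALKBH7, CLPP, GTF2F1, PSPN, STRIT1 and ZFYVE28, and 11 other genes had its exact value. WWTR1 stood between LOC124905564 and BCAM, with 60 genes at its exact value. CCN2 and AMOTL2 shared their exact values with 7 and 13 genes. Values were compared before rounding, so genes just above or below can have the same printed value without being counted as tied. This likeness is in 1 value of 1 library.

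In depth, the 15 peaks ranged from 6 to 27 fragments with a median of 9, against 8 over all peaks. Their median fold enrichment was 3.81 against 3.58, their median length 335 bp against 272 bp and their median local background 1.61 against 1.28. Lengths of 400 bp or more were found for 5 of the 15, against 15.3% of the list, and an FDR under 0.05 for 5 of the 15 (33.3%), against 15.5%. Of the 10 peaks at genes with an annotated start, 3 were within 2 kb of it, those of YAP1, WWTR1 and CCN2. All of these lay on the downstream side, with their near edges 1070, 1337 and 713 bp from the start. Over the list, 9.69% of peaks lay within 2 kb of any start in the promoter table. That share runs over all 22351 peaks wherever they lie, whereas the 10 peaks were taken in or within 10 kb of their genes. The shares are therefore not like for like. Each of the 3 peaks within 2 kb of a start had an FDR under 0.05.

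Longer genes more often held a peak. Of the protein-coding genes with spans under 10 kb, 35.2% had a peak by the rule used here, compared with 43.6% of those from 10 to 100 kb and 59.1% of those of 100 kb or more. CCN1 and CCN2 are in the first class, where 8.47% of genes had a peak with an FDR under 0.05, and both had one. The 5 genes of the middle class held a peak in 3 cases (AMOTL2, TEAD2 and TEAD4) and a peak with an FDR under 0.05 in 1 (AMOTL2), against 10.4% of the class. In the longest class YAP1 and WWTR1 had such a peak and TEAD1 had none, against 16.5% of the class. At least 2 peaks were found at YAP1, WWTR1, TEAD4, CCN1 and AMOTL2 and at 21.4% of all protein-coding genes.

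The rest of the pathway was described from 2 further lists. The first held 24 upstream and partner genes, with the kinases STK3, STK4, LATS1 and TAOK1 to TAOK3, their scaffolds SAV1, MOB1A and MOB1B, the membrane-linked regulators NF2, WWC1, FAT4 and AMOT, and the TEAD cofactors VGLL1 to VGLL4. Of these, 9 (37.5%) had a peak and 3 had a peak with an FDR under 0.05. The second list held 18 further genes of a YAP/TAZ target signature, of which 7 (38.9%) had a peak and 2 had a peak with an FDR under 0.05. Both shares of genes with a peak were somewhat below the 43.8% of all protein-coding genes, and the shares with an FDR under 0.05, 12.5% and 11.1%, were near the 10.9%. These background shares were not matched for gene length. The median span was 90.7 kb in the first list and 45.0 kb in the second, against 24.1 kb over all protein-coding genes, and longer genes more often held a peak. The median of the highest fold enrichment over the genes with a peak was 4.1 and 4.08 in these lists, 4.43 in the 10 genes and 3.82 over all protein-coding genes. Among the genes with no listed peak were STK4, LATS1, SAV1, NF2 and VGLL4 and the targets ANKRD1, F3 and PTPN14.

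In the upstream and partner list, TP73, a p53 family member that binds YAP, had the highest peak, chr1:3694643-3694988, with 11 fragments, a fold enrichment of 5.59 and an FDR of 0.000938. It was 3.06 kb upstream of an annotated start inside the gene. TP73 had 6 peaks in all, a number reached by 2.36% of protein-coding genes, and another of them had an FDR of 0.0163. VGLL2, which encodes a TEAD cofactor, had a peak of 10 fragments 500 to 780 bp inside its far end (fold enrichment 4.85, FDR 0.0119). STK3, the kinase MST2, had one 4.97 kb above its upper end (fold enrichment 4.35, FDR 0.0375), at a position that OSR2 spans.

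In the target signature, FOXF2, a forkhead factor, had the highest fold enrichment, 4.66, for a peak of 12 fragments 3.86 kb beyond its far end (FDR 0.00654). MYOF, a membrane-repair protein, followed with 4.3 (FDR 0.101). AXL, a receptor tyrosine kinase on chromosome 19, had 11 peaks, a number reached by 0.444% of protein-coding genes, and 3 of them had an FDR under 0.05. Their local backgrounds were 2.8, 3.0 and 4.0. Its highest peak, chr19:41218962-41219250, had 16 fragments, a fold enrichment of 4.14 and an FDR of 0.00358. That peak reached from 261 bp before the AXL start to 27 bp after it, so it covered most of the promoter window (chr19:41218973-41219272, plus strand), which is shown for this reason with CCCTCC in capitals.
AXL: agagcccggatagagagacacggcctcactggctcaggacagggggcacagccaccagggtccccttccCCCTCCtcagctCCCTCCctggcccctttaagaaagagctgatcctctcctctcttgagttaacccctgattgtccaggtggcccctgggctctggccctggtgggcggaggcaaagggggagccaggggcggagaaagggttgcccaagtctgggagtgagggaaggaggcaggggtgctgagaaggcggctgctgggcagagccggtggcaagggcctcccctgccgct
CCCTCC was found at -181 and -169 of this window, and none of the other motifs was. Of the 10 genes and both lists, counting genes with a peak and an annotated start, AXL was the only gene whose highest peak reached that start.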

How the data were processed

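HNRNPK ChIP-seq of untreated H1299 cells was available as 1 peak list, called on 1 IP library against 1 Input library. The submitters' processing notes name GRCh38, Trimmomatic 0.36, STAR 2.5.3a, MACS2, bedtools and HOMER without roles. The thresholds used are not given in the sources used here. The fold enrichment deposited by the authors is a ratio of pileup plus 1 to local background plus 1, the deposited p-value and FDR (q-value) are linear, and the deposited pileup is a signal in scaled fragments. Read totals of the libraries were not used here.

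From these, the local background was recovered as (pileup + 1) / fold enrichment - 1. A Poisson upper tail on it differed from the deposited p-values by at most 0.00351 on the log10 scale. Fragments are pileups divided by 0.9735, whole to within 0.00668 of a step. Peaks were joined to 59679 RefSeq gene spans (20037 protein-coding) by an overlap of at least 1 bp with the span or the 10 kb around it. Exons and introns were not used here. The joining of peaks to genes was checked on simulated peaks. With 1 library of each kind, no comparison between IP and Input was tested.

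The genes, lists and rules were chosen with earlier results of these data known. The genes named were the 10 genes, the genes of the other lists with a peak of FDR under 0.05 or among the 3 highest by fold enrichment in their list, and the neighbours in order of fold enrichment, given as numbers where many genes were tied. The genes just above YAP1 in that order are not reported here. Genes listed without a peak, and genes that only mark where a peak lies (such as TULP1, LINC00367, ZDHHC20, FOXM1 and MOXD1), fall outside this rule and were named after their values were seen. Alternatives were other windows, the peak midpoint, stricter limits on FDR or fold enrichment, merged peaks, all annotated genes and a ratio without the added 1. Computations used Python 3.11.15, numpy 2.4.6, scipy 1.17.1, pandas 2.3.3 and matplotlib 3.10.9.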

Additional observations from a re-analysis of the deposited data

How the results depend on the processing

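The number of genes with a peak, 7 of 10, was 2 (CCN1 and YAP1) with peaks of a fold enrichment of at least 5. It lay between 5 and 9 under the other alternatives run. The 15 peaks became 24 with a window of 50 kb, 5 at an FDR under 0.05 and 2 with fold enrichments of 5 or more. The 5 genes with a peak of FDR under 0.05 became 2 (CCN1 and YAP1) at an FDR under 0.001, a limit passed at 1.89% of protein-coding genes, and 4, without AMOTL2, in the gene span only. TEAD3 joined the 5 genes with a window of 50 kb. The share of protein-coding genes with a peak of FDR under 0.05 is given only for the 10 kb window (10.9%). The counts for the gene span and for 50 kb therefore have no background beside them. Of the 42 other Hippo genes, 16 had a peak, and this fell to 5 at an FDR under 0.05 and 1 with a fold enrichment of 5 or more. The share of protein-coding genes with a peak, 43.8%, was 29.3% over all annotated genes, 29.7% in the span only, 32.2% with a window of 1 kb and 66.6% with 50 kb. These moves follow from fewer peaks, other genes or other windows. Without the added 1, the CCN1 value was 16.4 in place of 10.46, by construction of the ratio, and the other 6 genes stayed within their counting intervals. This ratio was from 1.41 to 1.67 times the deposited value over the 7 genes, the most for TEAD2 (5.58 in place of 3.34), and AMOTL2 (6.74) passed CCN2 (6.27) in the order. No paired analysis was possible because there was 1 library of each kind. In depth, 8 of the 15 peaks rested on fewer than 10 fragments, against 74.9% of the list, which leaves the wide counting intervals given with the peaks.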

Other observations

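The surroundings of the genes differed in the number of listed peaks. Within 500 kb to either side, TEAD4 had 41 peaks, or 37.9 per Mb, and 5 of them had an FDR under 0.05. TEAD2 and AMOTL2 had 16 peaks each (15.7 per Mb) and TEAD3 had 10 (9.77 per Mb). The 6 others had from 4 to 7 peaks, with LATS2 at 3.67 and TEAD1 at 3.94 per Mb at the lower end. CCN1, with the highest fold enrichment among the 10 genes, had 4.98 peaks per Mb around it, where 1 of 5 peaks, that of CCN1 itself, had an FDR under 0.05. The median local background of the peaks in these regions was 1.61 at CCN1, 1.65 at CCN2 and 1.59 at TEAD4, and from 1.05 to 1.4 at the other genes. The part of the local background in the peak numbers was not tested.

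The nearest peak below TEAD4, 88.6 kb away, lay in FOXM1, a cell cycle transcription factor, with 11 fragments, a fold enrichment of 3.9 and an FDR of 0.0705. The nearest peaks around CCN2 were 177 kb below it (fold enrichment 4.41, FDR 0.0497) and 446 kb above it in MOXD1 (fold enrichment 5.25, FDR 0.00457), and both values lay within the counting interval of the CCN2 peak, 2.46 to 7.48.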
